A study of Mus musculus with 12 samples.

Results

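The immediate early and AP-1 genes described here are *Fos*, *Fosb*, *Fosl1*, *Fosl2*, *Jun*, *Junb*, *Jund*, *Atf3*, *Egr1* and *Myc*. They were chosen by gene symbol, each symbol stood on 1 gene identifier, and all 10 were found among the 53801 genes of the files. All 10 were among the 15306 genes that passed the filter on low counts. Whole hearts of C57BL/6N mice were profiled by RNA sequencing after sham surgery and on day 1 and day 7 after acute myocardial infarction (AMI), with 4 hearts per group and 1 library per heart. AMI was made under isoflurane by a suture around the left anterior descending coronary artery that was not released, and the mice were adult males without a transgene or drug. The time at which sham hearts were taken is not given in the sources used here. Nothing in the labels says that a replicate number links mice of different groups. The whole heart was extracted, so infarcted and spared muscle, blood and infiltrating cells share 1 library, and fewer cells of a type and less RNA per cell cannot be told apart.

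Libraries held between 23204551 and 32166517 counts. Levels are given as CPM, counts scaled to one common library total, after TMM normalization, a scaling that keeps a few abundant transcripts from shifting all other genes. The scaling factors were 0.781 to 0.917 in sham, 1.01 to 1.06 on day 1 and 1.10 to 1.17 on day 7, and mitochondrial transcripts took 17.9% to 27.4%, 12.1% to 15.9% and 13.2% to 19.2% of counts in these groups. The 8 cardiomyocyte markers used to check the labelled tissue were above 0 in every heart, with summed TPM, the length-corrected abundance of a transcript, of 45516.9 to 68160.0. Sham replicate 2 stood apart from its group with a summed TPM of 15170.3 for 5 erythroid markers, against 1617 to 3635 in the other sham hearts. Differentially expressed genes (DEGs) differed by a fold change (FC) of at least 2 with a false discovery rate (FDR) under 0.05 over all 15306 genes, and adjusted p-values are from that edgeR quasi-likelihood test. Log2 FCs are followed by their standard error (SE), and values of single hearts are in the order of replicates 1 to 4.

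Immediate early genes are transcribed within minutes of a stimulus such as stretch, injury, a growth factor or a cytokine, without the need for new protein synthesis. Many encode transcription factors. FOS and JUN proteins pair through leucine zippers to form AP-1, which binds the DNA element TGAGTCA and its relatives. JUN proteins can also pair with one another, whereas FOS proteins need a JUN partner. ATF3, a stress-induced zipper protein, pairs with JUN proteins as well. EGR1 binds GC-rich DNA through zinc fingers, and MYC pairs with MAX at E-boxes to drive growth and ribosome production. In cardiac muscle these genes are known to respond to pressure overload and ischemia, and most of them are also induced in leukocytes, fibroblasts and endothelial cells.

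The DNA just before the start of these genes carries short elements through which signals reach them, and the stretches of 5 genes that moved in different ways are shown for this reason. Of the 10 genes, 7 had an entry in the RefSeq promoter table for GRCm38.p6, and *Fosl1*, *Egr1* and *Myc* had none. Each line gives 120 bases, 5′ to 3′ on the strand of the gene and ending just before the RefSeq start. Capitals mark TGACG, the core of the cAMP response element, in *Fos*, *Fosb* and *Junb*, its reverse complement in *Atf3*, and TGACATCA, the AP-1 element of the *Jun* gene itself, in *Jun*. The positions are chr12:85473770-85473889 (plus strand) for *Fos*, chr7:19310046-19310165 (minus strand) for *Fosb*, chr4:95052223-95052342 (minus strand) for *Jun*, chr8:84978749-84978868 (minus strand) for *Junb*, and chr1:191183334-191183453 (minus strand) for *Atf3*.
Fos: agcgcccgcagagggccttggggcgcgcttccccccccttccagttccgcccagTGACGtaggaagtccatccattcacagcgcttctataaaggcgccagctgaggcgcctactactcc
Fosb: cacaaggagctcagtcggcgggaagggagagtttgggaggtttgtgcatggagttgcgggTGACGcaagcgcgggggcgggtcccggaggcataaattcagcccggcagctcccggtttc
Junb: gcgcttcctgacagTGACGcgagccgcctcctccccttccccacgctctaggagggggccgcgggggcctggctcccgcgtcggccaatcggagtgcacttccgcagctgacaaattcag
Jun: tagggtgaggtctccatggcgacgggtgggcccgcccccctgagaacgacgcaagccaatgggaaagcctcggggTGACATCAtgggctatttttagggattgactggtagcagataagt
Atf3: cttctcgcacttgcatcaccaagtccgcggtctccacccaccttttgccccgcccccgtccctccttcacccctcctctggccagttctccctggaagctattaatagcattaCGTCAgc

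Motifs were searched on both strands of the 250 bases before the start of all 32851 promoters of the table. TGACG was found in *Fos*, *Fosb*, *Junb* and *Atf3*, which is 4 of 7 genes, and in 17.8% of all promoters. It also lies inside the full element TGACGTCA, which was in none of the 7 and in 1.55% of all promoters. The classical AP-1 element TGAGTCA was likewise in none of the 7 and in 4.46% of promoters. TGACATCA was in *Jun* and in 2.93% of promoters. The EGR element GCGGGGGCG was in *Fosb* and *Fosl2*, against 2.57% of promoters, and the TATA box TATAAA was in *Fos*, against 12.4%. The CCAAT box was in *Jun* and *Junb*, against 33.8%. The E-box CACGTG, in 6.02% of promoters, and the CArG box, the core of the serum response element, in 1.47%, were in none of the 7. These are matches of letters in a window, and elements more than 250 bases before the start were not searched. The RefSeq start of *Atf3* lies 34706 bases inside the gene start of GENCODE M21, so the stretch belongs to an inner start. The starts of *Fosl2* and *Jund* in the table differ from GENCODE by 671 and 1210 bases, and their stretches are not shown. *Atf3*, *Fosl2* and *Jund* are counted among the 7 all the same, although their windows do not lie just before the GENCODE start.

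On day 1, 8 of the 10 genes were DEGs, all higher than in sham, beside 7.79% of all genes tested. None was lower, beside 2.98%. These were *Atf3*, *Fosl1*, *Myc*, *Fos*, *Fosb*, *Junb*, *Egr1* and *Fosl2*, with FCs from 7.84 for *Atf3* to 2.21 for *Fosl2*. *Jund* passed the FDR with a FC of 1.44, and *Jun* did not pass. On day 7, 2 of the 10 were DEGs against sham, *Atf3* and *Egr1*, both higher, against 15.3% of all genes, and none was lower, against 5.88%. From day 1 to day 7, *Fosl1*, *Atf3*, *Fos*, *Junb* and *Myc* fell, which is 5 of 10 against 2.69% of all genes, and none rose, against 8.55%.

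The median log2 FC of the 10 genes was 1.56 for day 1 against sham, 0.78 for day 7 against sham, and -0.96 for day 7 against day 1, beside medians of -0.012, 0.026 and 0.021 over all genes tested. Both AMI groups were set against the same sham hearts, and day 1 hearts enter 2 of the 3 comparisons. With the FDR alone, 9, 5 and 6 of the 10 passed in these comparisons, against 22% of all genes higher on day 1, 30.9% higher on day 7, and 22.8% lower on day 7 than on day 1. The hearts of the groups did not overlap for 6 genes on day 1 (all higher than sham, against 19.6% of all genes), for 4 on day 7 (higher, against 28.3%) and for 4 between the AMI groups (lower on day 7, against 20.9%). An exact two-sided permutation test on 4 and 4 hearts cannot go below p = 0.0286, and 14 of 30 tests of single genes reached it. On library totals without TMM factors, the median over all genes stood at 0.26, 0.43 and 0.15 in the 3 comparisons, so every log2 FC is relative to the TMM scale.

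**Figure D1:**
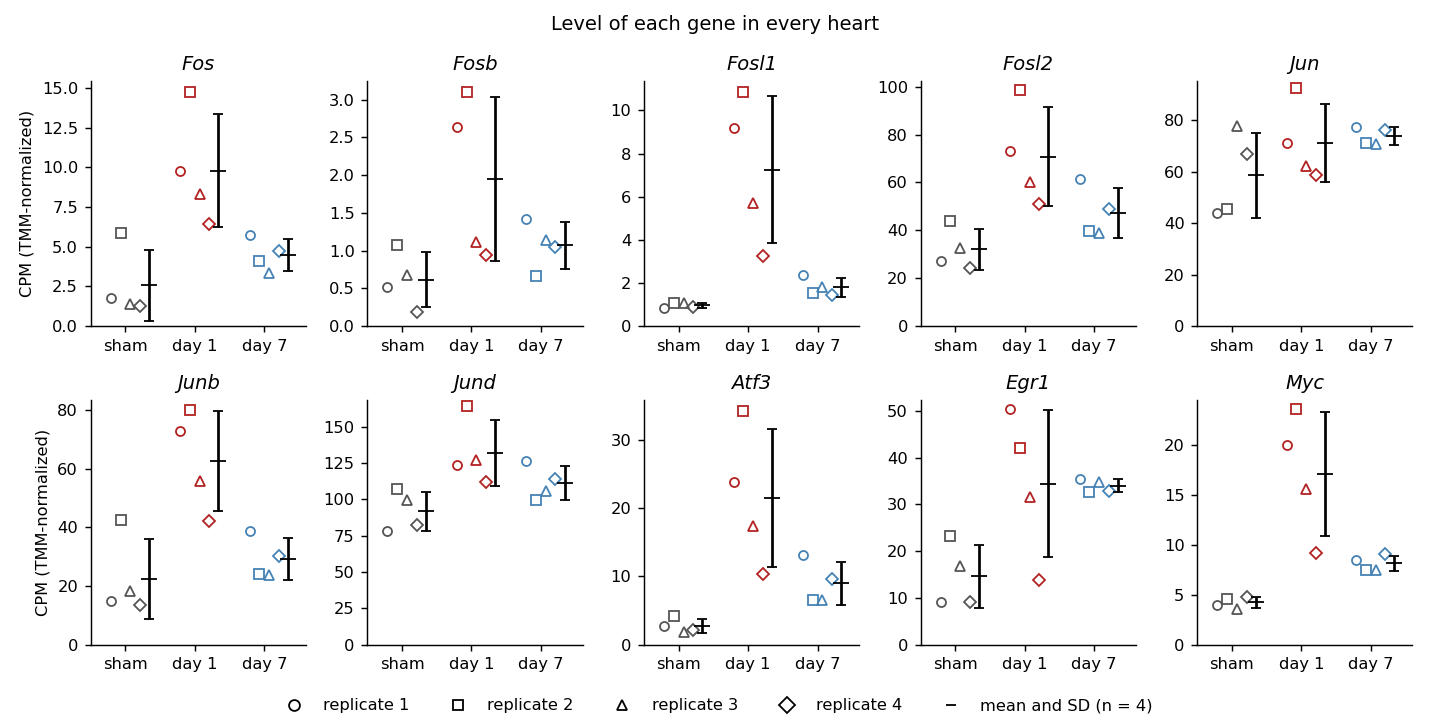
TMM-normalized CPM of each of the 10 genes in every heart, with sham in gray, day 1 AMI in red and day 7 AMI in blue. Symbols are replicates and bars are the mean and SD of 4 hearts. *Egr1* sits between 32.7 and 35.6 CPM in all day 7 hearts and between 13.8 and 50.4 CPM in day 1 hearts.

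**Figure D2:**
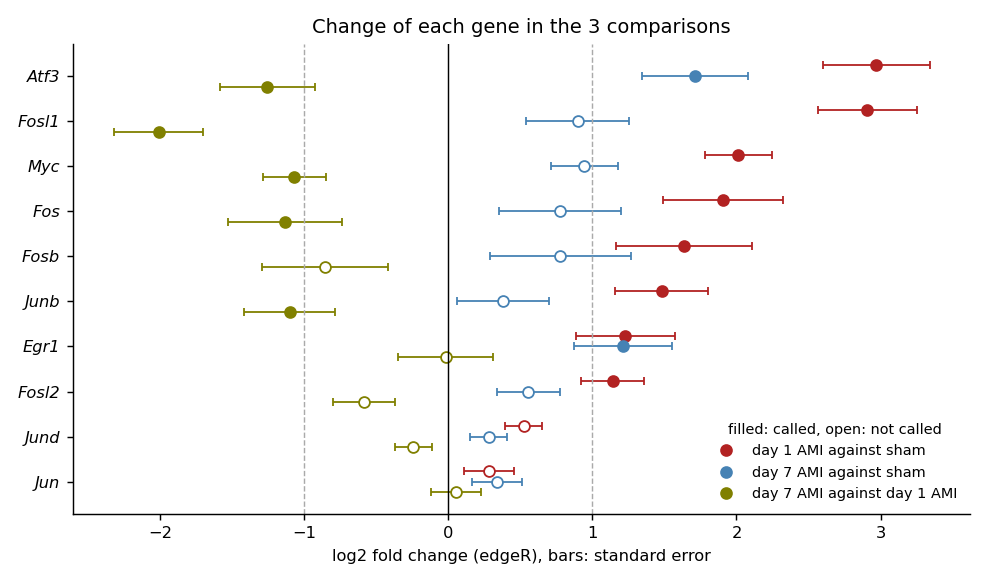
Log2 FC from edgeR (horizontal axis) with its SE for the 10 genes in the 3 comparisons. Filled points are DEGs, open points are not, and dashed lines mark an FC of 2. The day 1 values run from 0.28 for *Jun* to 2.97 for *Atf3*.

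The Fos family was led in change by *Fosl1*, which encodes FRA-1, a partner of JUN proteins in wound and tumor tissue. *Fosl1* in sham hearts was 0.835, 1.07, 1.07 and 0.861 CPM. On day 1 *Fosl1* was 9.18, 10.9, 5.72 and 3.25 CPM. On day 7 *Fosl1* was 2.37, 1.55, 1.81 and 1.43 CPM. All 3 groups were apart from one another, with sham lowest and day 1 highest. The log2 FC was 2.91 (SE 0.342, adjusted p = 4.36e-05) on day 1, a FC of 7.51, and *Fosl1* then fell by 2.01 on the log2 scale (SE 0.311, adjusted p = 0.00015) to day 7. The day 7 level was 1.86 times that of sham (log2 FC 0.90, SE 0.357, adjusted p = 0.0425), which passed the FDR and not the FC minimum. Of the exon bases of *Fosl1*, 57.2% are shared with *Ccdc85b* on the opposite strand, which had up to 480 counts, and reads of both genes cannot be told apart because the strand counted is not given.

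*Fos*, the founding member, encodes the short-lived partner of JUN. *Fos* in sham hearts was 1.77, 5.87, 1.36 and 1.24 CPM. On day 1 *Fos* was 9.75, 14.7, 8.31 and 6.40 CPM. On day 7 *Fos* was 5.70, 4.10, 3.32 and 4.69 CPM. Sham replicate 2 was above every day 7 heart, while the other sham hearts were below all AMI hearts. *Fos* rose 3.75-fold on day 1 (log2 FC 1.91, SE 0.417, adjusted p = 0.00251) and fell from day 1 to day 7 by 1.13 on the log2 scale (SE 0.394, adjusted p = 0.0288), with no overlap of hearts in either comparison. On day 7 *Fos* was at a log2 FC of 0.77 against sham (SE 0.422, adjusted p = 0.129). Without sham replicate 2, this value was 1.61 (adjusted p = 0.000522) and *Fos* was a DEG on day 7, while the day 1 log2 FC was 2.75 (SE 0.304, adjusted p = 5.54e-05). The fall from day 1 to day 7 was no longer called when any of 5 hearts was left out, with adjusted p from 0.0511 to 0.0955.

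*Fosb*, whose product accumulates with repeated stimulation, was the least abundant of the genes, with as few as 4 counts in 1 heart. *Fosb* in sham hearts was 0.522, 1.07, 0.679 and 0.191 CPM. On day 1 *Fosb* was 2.64, 3.10, 1.11 and 0.946 CPM. On day 7 *Fosb* was 1.42, 0.657, 1.14 and 1.05 CPM. Day 1 replicate 4 was below sham replicate 2, so the groups overlapped. *Fosb* rose 3.10-fold on day 1 (log2 FC 1.63, SE 0.474, adjusted p = 0.0132), a call that was lost without day 1 replicate 2 (log2 FC 1.31, adjusted p = 0.0525). The day 7 values were 0.78 against sham (SE 0.488, adjusted p = 0.185) and -0.86 against day 1 (SE 0.435, adjusted p = 0.121) on the log2 scale.

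*Fosl2*, which encodes FRA-2, was the most abundant member of its family. *Fosl2* in sham hearts was 27.3, 43.8, 32.7 and 24.3 CPM. On day 1 *Fosl2* was 73.0, 98.6, 60.2 and 51.1 CPM. On day 7 *Fosl2* was 61.3, 39.8, 38.7 and 48.8 CPM. The day 1 hearts were above all sham hearts, and the day 7 hearts overlapped both groups. *Fosl2* rose 2.21-fold on day 1 (log2 FC 1.14, SE 0.219, adjusted p = 0.00104), and without day 1 replicate 2 the log2 FC was 0.94, under the minimum. On day 7 the log2 FC was 0.56 against sham (SE 0.218, adjusted p = 0.0396) and -0.58 against day 1 (SE 0.215, adjusted p = 0.0371), both past the FDR and short of the FC minimum.

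In the Jun family, *Junb* was the DEG. JUNB is a weaker activator than JUN on simple AP-1 sites and can restrain it. *Junb* in sham hearts was 15.0, 42.6, 18.3 and 13.4 CPM. On day 1 *Junb* was 72.8, 80.1, 55.7 and 42.1 CPM. On day 7 *Junb* was 38.9, 24.0, 23.6 and 30.2 CPM. Sham replicate 2 was just above the lowest day 1 heart and above all day 7 hearts, whereas the other sham hearts lay below all AMI hearts. *Junb* rose 2.79-fold on day 1 (log2 FC 1.48, SE 0.321, adjusted p = 0.00237) and fell by 1.10 on the log2 scale to day 7 (SE 0.315, adjusted p = 0.0107), where its log2 FC against sham was 0.38 (SE 0.319, adjusted p = 0.321). Without sham replicate 2, the day 7 value was 0.90 (adjusted p = 0.00396), which passed the FDR and not the FC minimum. The fall was 0.96 on the log2 scale without day 1 replicate 2, under the minimum. *Junb* shares 7.52% of its exon bases with *Prdx2* on the opposite strand, which had up to 8907 counts.

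*Jun*, the main transactivating partner of FOS, passed no test in the main fit. *Jun* in sham hearts was 43.8, 45.6, 77.7 and 67.0 CPM. On day 1 *Jun* was 71.2, 92.7, 62.2 and 58.9 CPM. On day 7 *Jun* was 77.5, 71.0, 70.8 and 76.1 CPM. Sham hearts fell into a lower pair, replicates 1 and 2, and a higher pair, so that the sham range overlapped both AMI groups. The log2 FC of *Jun* was 0.28 on day 1 (SE 0.175, adjusted p = 0.21) and 0.34 on day 7 (SE 0.175, adjusted p = 0.113) against sham, and 0.052 between the AMI groups (SE 0.174, adjusted p = 0.826). With a heart left out of the edgeR fit, the adjusted p ran from 0.0485 to 0.578 on day 1 and from 0.0206 to 0.303 on day 7 against sham. In the other alternative fits it ran from 0.0167 to 0.268 and from 0.000761 to 0.150. *Jun* was a DEG in none of these.

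*Jund*, expressed at rest in many tissues and known to restrain growth, was the most abundant of the 10 genes. *Jund* in sham hearts was 78.4, 107, 99.3 and 82.3 CPM. On day 1 *Jund* was 124, 164, 127 and 112 CPM. On day 7 *Jund* was 126, 99.3, 106 and 114 CPM. Day 1 hearts were above all sham hearts, while day 7 hearts overlapped both groups. *Jund* had a log2 FC of 0.52 on day 1 (SE 0.129, adjusted p = 0.00526), 0.28 on day 7 (SE 0.129, adjusted p = 0.0756) and -0.24 between the AMI groups (SE 0.128, adjusted p = 0.133). Its exon bases are shared to 52.6% with the antisense gene *Gm11175*, which had up to 397 counts, and these reads cannot be told apart either.

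*Atf3* had the largest FC of the 10 genes on day 1. *Atf3* in sham hearts was 2.71, 4.15, 1.89 and 2.10 CPM. On day 1 *Atf3* was 23.9, 34.3, 17.4 and 10.4 CPM. On day 7 *Atf3* was 13.2, 6.53, 6.53 and 9.59 CPM. Every AMI heart was above every sham heart, and day 7 replicate 1 was above day 1 replicate 4. *Atf3* rose 7.84-fold on day 1 (log2 FC 2.97, SE 0.370, adjusted p = 6.17e-05) and 3.28-fold on day 7 (log2 FC 1.71, SE 0.370, adjusted p = 0.00111) against sham. It fell from day 1 to day 7 by 1.26 on the log2 scale (SE 0.329, adjusted p = 0.00635), and by 0.94 without day 1 replicate 2, under the minimum.

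*Myc* and *Fosl1* had the smallest spread of the 10 genes among sham hearts. *Myc* in sham hearts was 3.91, 4.60, 3.59 and 4.73 CPM. On day 1 *Myc* was 19.9, 23.5, 15.6 and 9.14 CPM. On day 7 *Myc* was 8.44, 7.46, 7.49 and 9.05 CPM. The 3 groups did not overlap, with sham lowest and day 1 highest, although the highest day 7 heart came within 0.1 CPM of the lowest day 1 heart. *Myc* rose 4.04-fold on day 1 (log2 FC 2.01, SE 0.233, adjusted p = 4.13e-05) and fell by 1.07 on the log2 scale to day 7 (SE 0.219, adjusted p = 0.00119). On day 7 it was 1.92 times sham (log2 FC 0.94, SE 0.234, adjusted p = 0.003), past the FDR and short of the FC minimum. The fall to day 7 was under the minimum without day 1 replicate 1 (0.99 on the log2 scale) and without day 1 replicate 2 (0.88).

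*Egr1* had nearly the same mean in both AMI groups, 34.4 ± 15.8 CPM on day 1 and 34.0 ± 1.40 CPM on day 7 (SD, n = 4). *Egr1* in sham hearts was 9.13, 23.2, 16.9 and 9.18 CPM. On day 1 *Egr1* was 50.4, 42.0, 31.6 and 13.8 CPM. On day 7 *Egr1* was 35.6, 32.7, 34.8 and 32.9 CPM. Day 1 replicate 4 was below 2 of the sham hearts, whereas all day 7 hearts were above all sham hearts and within 1.09-fold of one another. *Egr1* rose 2.35-fold on day 1 (log2 FC 1.23, SE 0.341, adjusted p = 0.0104) and 2.32-fold on day 7 (log2 FC 1.21, SE 0.341, adjusted p = 0.00704). Without day 1 replicate 1 the day 1 value was 0.99, under the minimum. Between the AMI groups the log2 FC was -0.018 (SE 0.328, adjusted p = 0.971), and it was 0.11 on library totals alone and 0.38 with limma on log2(TPM + 1).

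TPM is divided by transcript length, so levels of different genes can be compared on that scale. Between groups, TPM carries a shift, since with limma on log2(TPM + 1) the median log2 FC of all genes against sham was 0.28 on day 1 and 0.48 on day 7, and the levels and sums given in TPM are not corrected for it. *Jund* was the highest of the 10 genes in every group, at 71.6 ± 15.2 TPM in sham, 127 ± 21.4 on day 1 and 127 ± 15.6 on day 7 (mean ± SD, n = 4), and its hearts did not overlap with those of the next gene. *Fosb* was the lowest in every group, at 0.203 ± 0.130, 0.80 ± 0.483 and 0.643 ± 0.137 TPM, also without overlap. The next gene after *Jund* was *Jun* in sham (21.7 ± 6.60 TPM) and on day 7 (40.2 ± 3.00), and *Junb* on day 1 (54.8 ± 14.4). The ranges of *Jun* and *Junb* overlapped in all 3 groups. Within single hearts, *Junb* was above *Jun* in every day 1 heart and *Jun* above *Junb* in every day 7 heart. In sham, *Jun* was above *Junb* in all hearts but replicate 2 (18.1 against 32.1 TPM). *Atf3* stood in place 7 of 10 in sham, at 1.97 ± 0.746 TPM, and in place 4 on day 1, at 16.9 ± 7.98 TPM. On day 1 the neighbors from *Atf3* through *Fosl2*, *Egr1*, *Myc* and *Fos* to *Fosl1* overlapped one after the other. On day 7 *Egr1* took place 4, at 17.8 ± 0.514 TPM, above all hearts of *Fosl2*.

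The make-up of each family was taken as shares of its summed TPM. The Fos family summed to 8.38 ± 3.77 TPM in sham, 30.7 ± 10.1 on day 1 and 18.9 ± 4.53 on day 7. *Fosl2* held 71.6% ± 6.09 of this sum in sham, 51.4% ± 3.26 on day 1 and 64.9% ± 0.879 on day 7. *Fosl1* held 9.36% ± 2.31, 21.4% ± 4.89 and 10.6% ± 1.87, and the lowest day 1 heart (14.8%) was above the highest heart of the other groups (12.8%). The shares of *Fosl2* did not overlap between sham and day 1, where the lowest sham heart had 62.6% and the highest day 1 heart 55.7%. *Fos* held 16.8% ± 8.04, 24.8% ± 2.38 and 21.2% ± 1.75, and the highest sham heart, at 28.6%, was above all AMI hearts. *Fosb* held between 1.09% and 3.55% in any heart.

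The Jun family summed to 109 ± 26.3 TPM in sham, 215 ± 40.5 on day 1 and 197 ± 26.2 on day 7. On the TMM scale, none of its 3 members was a DEG on day 7 against sham, with FCs of 1.21 for *Jund*, 1.26 for *Jun* and 1.30 for *Junb*. *Jund* held 65.8% ± 2.47, 59.4% ± 3.31 and 64.3% ± 0.916 of it. *Junb* held 13.9% ± 6.22 in sham, 25.3% ± 3.37 on day 1 and 15.1% ± 1.97 on day 7, and sham replicate 2, at 23.1%, was the only heart of the other groups that reached into the day 1 range. *Jun* held 20.3% ± 5.68, 15.3% ± 0.681 and 20.5% ± 1.38. Shares of one sum are linked, since a rise of one member lowers the others, and no test was made on them.

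**Figure D3:**
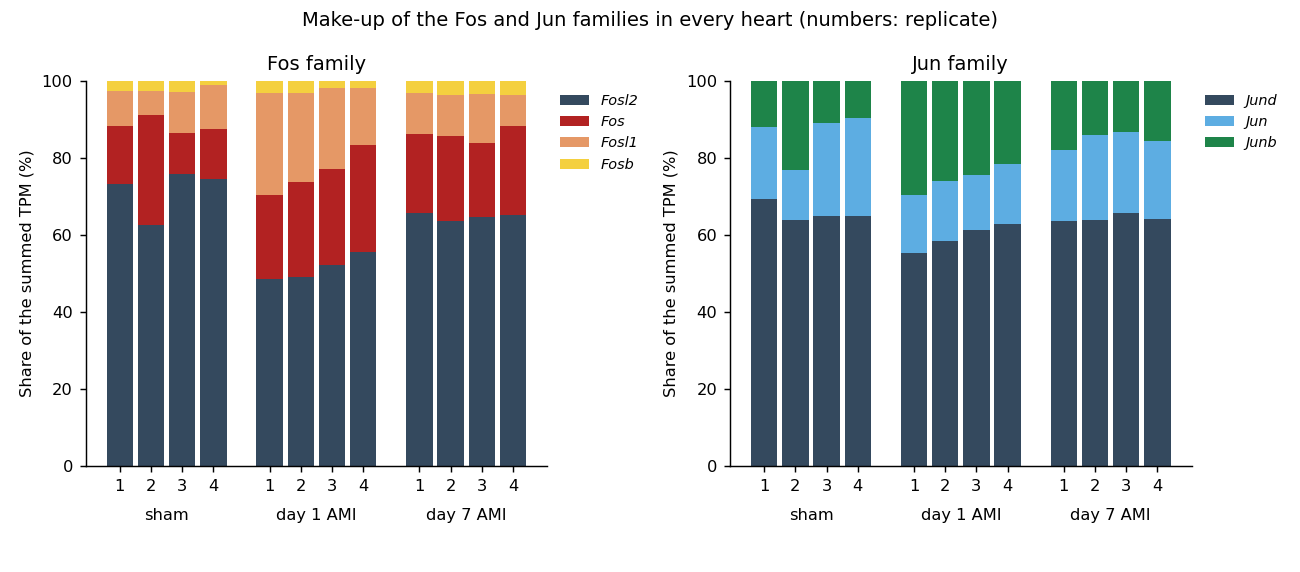
Share of each member in the summed TPM of its family (vertical axis, percent) for every heart, with the Fos family on the left and the Jun family on the right. The *Fosl1* share is 14.8% or more in each day 1 heart and 12.8% or less in each other heart.

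The spread among hearts was wide for most of the genes and was shared between them. In sham, replicate 2 was the highest heart for 8 of 10 genes, all but *Jun* and *Myc*, and its median over the 10 was 0.77 above the other sham hearts on the log2 scale. On day 1, replicate 2 was highest for 9 of 10, all but *Egr1* (median 0.71 above the others), and replicate 4 was lowest for 10 of 10 (median -0.90). On day 7, replicate 1 was highest for 9 of 10, all but *Myc* (median 0.52). Among 31 other immediate early genes tested, sham replicate 2 was highest for 17 (54.8%), day 1 replicate 2 for 24 (77.4%) and day 7 replicate 1 for 19 (61.3%), beside 27.9%, 31.1% and 32.8% of all genes tested.

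**Figure D4:**
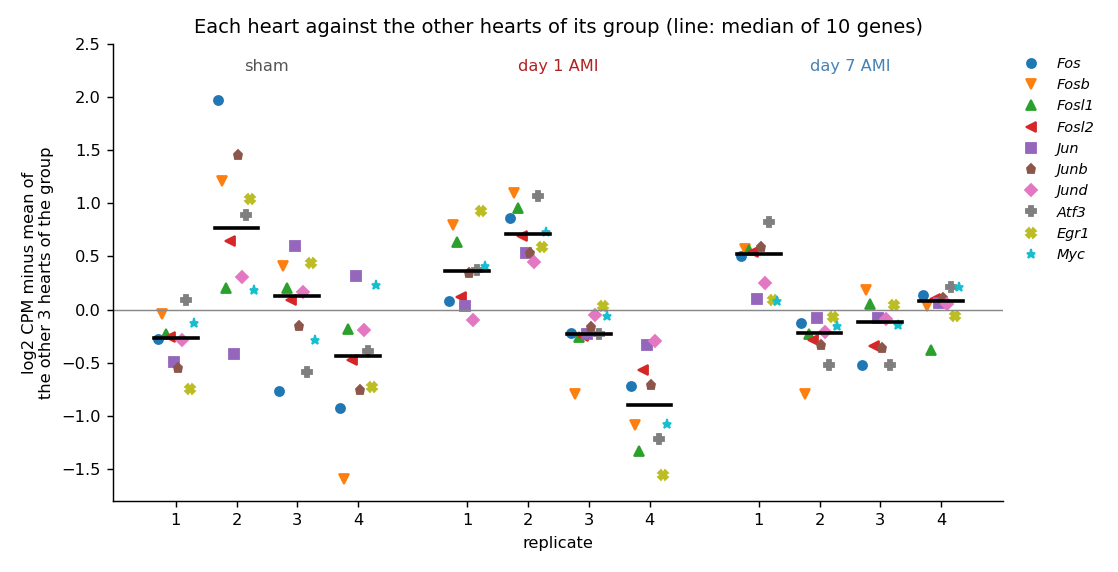
Log2 CPM of each gene in a heart minus its mean in the other 3 hearts of the group (vertical axis), for the 12 hearts. Points are genes and lines are medians of the 10 genes. All 10 points of day 1 replicate 4 lie below 0, from -1.55 to -0.29.

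As the SD of log2 CPM among the 4 hearts of a group, the median over all genes was 0.200 in sham, 0.169 on day 1 and 0.168 on day 7. *Fos* had an SD of 1.01 in sham, wider than 97.6% of genes, then 0.499 on day 1 and 0.323 on day 7. *Egr1* had SDs of 0.665 in sham and 0.825 on day 1, wider than 92.3% and 98.0% of genes. On day 7 the SD of *Egr1* was 0.0593, and 6.63% of genes were tighter. *Jun* was also tight on day 7, with 0.408 in sham, 0.292 on day 1 and 0.0676 on day 7. Between sham and day 1 the SD of *Fosl1* rose from 0.179 to 0.771 and that of *Myc* from 0.187 to 0.592. It also rose for *Egr1*, *Atf3* (0.491 to 0.728), *Fosl2* (0.368 to 0.406) and *Jund* (0.213 to 0.236), and fell for *Fos*, *Fosb*, *Jun* and *Junb*. No spread was compared by a test.

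Other measures moved with the hearts that stood high. Sham replicate 2 (26573727 counts), day 1 replicate 2 (32166517) and day 7 replicate 1 (28738082) were each the deepest library of their group. Day 1 replicate 4 had 29994671 counts, more than day 1 replicate 1 (25541858). Sham replicate 2 had, besides its erythroid sum, a summed TPM of 236 for 10 neutrophil markers, against 4.27 to 105 in the other sham hearts. Day 1 replicate 2 was the deepest library and had a neutrophil sum of 495, against 123 to 230, and a monocyte and macrophage sum of 913, against 619 to 820. Day 1 replicate 4, lowest for all 10 genes, had sums of 216 and 820, and a smooth muscle sum of 105, against 171 to 217 in the other day 1 hearts. Day 7 replicate 1 had the highest monocyte and macrophage sum (1768) and fibroblast sum (3543) of its group, a smooth muscle sum of 628, against 211 to 288, and a neutrophil sum of 32.1, against 180 in replicate 4, the highest of that group. The part of these measures in the levels of the 10 genes was not tested. Without sham replicate 2, DEGs numbered 8, 3 and 5 of the 10 in the order of comparisons above, and without day 1 replicate 2 they numbered 6, 2 and 1, the 1 being *Fosl1*. Among all genes, DEGs in the same directions numbered 1293, 2487 and 438 of 15547 without sham replicate 2. They numbered 980, 2405 and 356 of 15535 without day 1 replicate 2, and 1192, 2346 and 411 of 15306 with all hearts.

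Markers of other cell types also moved between the groups. Among all genes tested, DEGs were 7.79% higher and 2.98% lower on day 1 against sham. They were 15.3% higher and 5.88% lower on day 7 against sham, and 8.55% higher and 2.69% lower between the AMI groups. The marker counts of DEGs stand beside these shares. Of 9 neutrophil markers tested, 5 rose on day 1, 2 rose and 1 fell on day 7 against sham, and 6 fell from day 1 to day 7, with group ranges of 4.27 to 236, 123 to 495 and 18.2 to 180 TPM. Without sham replicate 2, which held the high end of the sham range, 3 of the 9 rose and 0 fell on day 7 against sham. Their median log2 FC was then 0.028 instead of -1.08. *Ly6g*, a defining neutrophil marker, was at 0 in 2 sham, 1 day 1 and 3 day 7 hearts. Among the 9 tested, *Trem1*, *Il1r2* and *Clec4d* were at 0 in 3, 2 and 1 sham hearts. They had at most 9, 6 and 10 counts in any sham heart and passed the filter on low counts through AMI hearts. Of 10 monocyte and macrophage markers, 5 rose on day 1 and 8 on day 7 against sham, with ranges of 253 to 469, 619 to 913 and 1087 to 1768 TPM. None of the 10 was a DEG between the AMI groups, where their median log2 FC was 0.39 and 4 were higher with the FDR alone. Of 6 fibroblast markers, 2 rose on day 1 and 4 on day 7 (392 to 507, 415 to 542 and 2113 to 3543 TPM). Of 8 cardiomyocyte markers, none was a DEG on day 1 and 5 were lower DEGs on day 7. With the FDR alone, 7 of the 8 were lower on day 1, beside 19.9% of all genes. All 8 log2 FCs were negative on day 1 (median -0.56, from -0.87 to -0.10). The summed TPM of the 8 was 59059.6 to 68160.0 in sham, 49449.7 to 56409.0 on day 1 and 45516.9 to 51481.7 on day 7. Of 5 endothelial markers, none was a DEG against sham and 1 rose between the AMI groups. With the FDR alone, 2 of the 5 were lower on day 1, 4 were higher on day 7 against sham and 5 were higher between the AMI groups. These counts stand beside 19.9%, 30.9% and 24.2% of all genes. Their summed TPM was 211 to 265 in sham, 241 to 259 on day 1 and 463 to 518 on day 7. Of 3 smooth muscle markers, 1 rose at either time against sham, and of 3 B cell markers none was a DEG. Of 4 T and NK cell markers, 2 were tested, of which 1 rose on day 1 and both on day 7. These 2 had at most 6 counts in any sham heart and passed the filter on low counts through AMI hearts. Without sham replicate 2, none of the 3 T and NK cell markers then tested was a DEG on day 1. Of 5 erythroid markers, 3 fell at either time against sham and none did without sham replicate 2, which held the high end of the sham range (1617 to 15170.3 TPM, against 1645 to 2542 on day 1 and 1172 to 4819.7 on day 7). Without day 1 replicate 2, no erythroid marker was a DEG on day 1. Their part in the levels of the 10 genes was not tested.

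Of the 31 other immediate early genes tested, 11 rose on day 1 and none fell, beside 7.79% and 2.98% of all genes, and 6 rose on day 7 against sham, beside 15.3%. Without day 1 replicate 2, 8 of the 32 then tested rose on day 1, beside 980 of all 15535 genes. The median log2 FC of the 31 was 0.73 on day 1, 0.32 on day 7 and -0.083 between the AMI groups. *Egr2* and *Egr3*, zinc finger relatives of *Egr1*, had only 6 to 15 and 5 to 28 counts per sham heart. Their log2 FCs were 2.79 (SE 0.446) and 2.54 (SE 0.419) on day 1 and 3.46 (SE 0.441) and 2.98 (SE 0.418) on day 7. *Dusp2*, a phosphatase that switches off MAP kinases, had 2 to 9 counts per sham heart and rose from 0.0970 to 0.430 CPM in sham to 1.04 to 1.67 on day 1 and 1.11 to 2.28 on day 7. The kinase *Plk3* rose at both times as well, by 1.38 (SE 0.302) and 1.72 (SE 0.302) on the log2 scale.

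From day 1 to day 7, 4 of the 31 fell, beside 2.69% of all genes, and none rose, beside 8.55%. These were *Ier3*, a survival factor of stressed cells, *Gadd45g*, an activator of stress kinases, *Csrnp1*, and *Dusp5*, a nuclear ERK phosphatase, with log2 FCs of -1.68 (SE 0.214), -1.55 (SE 0.271), -1.39 (SE 0.201) and -1.22 (SE 0.196). *Ier3*, *Gadd45g* and *Dusp5* had risen on day 1, with log2 FCs of 1.96 (SE 0.217), 1.53 (SE 0.273) and 1.15 (SE 0.198). *Csrnp1* was at 0.69 on day 1 (SE 0.198, adjusted p = 0.0129), under the FC minimum. *Nr4a2* (1.15, SE 0.230) and *Plk2* (1.07, SE 0.200) were DEGs on day 7 against sham and not on day 1. On day 1 *Plk2* was at 0.73 (SE 0.200, adjusted p = 0.00982), past the FDR and short of the FC minimum. *Nr4a2* was then at 0.46 (SE 0.235, adjusted p = 0.132). Between the AMI groups *Plk2* was at 0.34 (adjusted p = 0.163) and *Nr4a2* at 0.69 (adjusted p = 0.0173).

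Among 11 other zipper proteins that pair with AP-1 members, *Batf* and *Maff* rose on day 1, with log2 FCs of 1.30 (SE 0.274) and 1.05 (SE 0.347), and *Batf* and *Batf3* on day 7, with 1.20 (SE 0.275) and 1.45 (SE 0.308). These were 2 of 11 at each time, beside 7.79% and 15.3% of all genes. Without day 1 replicate 2 the day 1 count was 1, beside 980 of all 15535 genes. BATF proteins take the place of FOS beside JUN in immune cells, and none of the 11 was a DEG between the AMI groups. Of 21 kinases and factors upstream of these genes, none was a DEG on day 1, beside 7.79% of all genes higher and 2.98% lower. With the FDR alone, 6 of the 21 were higher and 3 lower on day 1, beside 22% and 19.9% of all genes. Without sham replicate 2, 1 of the 21 rose on day 1, beside 1293 of all 15547 genes. On day 7 against sham, 3 of 21 rose, beside 15.3% of all genes. These were the MAP kinase gene *Mapk7* (1.17, SE 0.128), the ribosomal S6 kinase gene *Rps6ka1* (1.21, SE 0.138) and *Mkl1*, a coactivator of serum response factor (1.02, SE 0.135).

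Of 12 known AP-1 targets tested, 10 rose on day 1 and 9 rose and 1 fell on day 7 against sham, while 6 fell between the AMI groups, beside 7.79%, 15.3%, 5.88% and 2.69% of all genes. The median log2 FCs were 2.51, 1.33 and -0.77. *Timp1*, an inhibitor of matrix metalloproteinases, had a log2 FC of 5.09 (SE 0.437) on day 1 and 3.95 (SE 0.425) on day 7. The chemokine *Ccl2* had 3.73 (SE 0.483) and 1.21 (SE 0.487). The cytokine *Il6*, also a DEG at both times, had 0 to 3 counts per sham heart (0 to 0.156 CPM), so no FC is given, and was at 0.785 to 1.95 CPM on day 1 and 0.850 to 1.33 on day 7. The metalloproteinases *Mmp9* and *Mmp3* fell from day 1 to day 7, with -4.30 (SE 0.518) and -2.53 (SE 0.416). *Mmp3* was the gene that fell on day 7 against sham, with -1.10 (SE 0.421), and without sham replicate 2 none fell. These genes answer to other factors too, and several are made by leukocytes.

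Around *Myc*, 10 genes of its network were tested, of which 1 rose on day 1, beside 7.79% of all genes, and 3 rose on day 7 against sham, beside 15.3%. *Mxd3*, a MAX partner linked to proliferation, had 1 to 10 counts per sham heart and rose from 0.0478 to 0.522 CPM in sham to 0.458 to 1.10 on day 1 and 4.28 to 6.81 on day 7. *Mycl*, a relative of *Myc* with 3 to 7 counts per sham heart, rose from 0.146 to 0.287 CPM in sham to 0.889 to 1.70 on day 7. *Mycn*, the other relative, rose on day 7 with log2 FCs of 1.58 (SE 0.390) against sham and 1.50 (SE 0.381) against day 1. Over the same interval *Myc* itself fell. Of 16 known MYC targets, *Srm*, which makes spermidine (1.44, SE 0.161), and *Nme1*, a nucleotide kinase (1.33, SE 0.10), rose on day 1, beside 7.79% of all genes, and none was a DEG in the other comparisons. With the FDR alone, 11 of the 16 were higher and 1 lower on day 1, beside 22% and 19.9% of all genes. On day 7 against sham, 5 were higher and 3 lower, beside 30.9% and 28.4%. From day 1 to day 7, 1 was higher and 12 were lower, beside 24.2% and 22.8%. The median log2 FCs of the 16 were 0.57, 0.080 and -0.62.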

How the data were processed

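RNA sequencing libraries of 12 mouse hearts, from sham surgery and from both times after AMI, were grouped by their labels. The authors isolated total RNA, made cDNA from random hexamers, read both ends of fragments for 150 bases, removed adapters and poor bases (Cutadapt), and mapped the rest to Ensembl GRCm38 release 92 with STAR 2.4.0j. The authors deposited raw counts, whole numbers of reads per gene without normalization, and TPM from RSEM, which is relative to each library. The tool behind the counts, the strand counted and the treatment of reads with several alignments are not given in the sources used here.

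Counts were filtered with filterByExpr, normalized by TMM and fitted over 3 groups with edgeR 4.0.16 in R 4.3.3 (quasi-likelihood test, Benjamini-Hochberg FDR over 15306 genes). SEs follow from the F statistic. Log2 CPM used a prior count of 2. Depth ran from 23204551 to 32166517 counts. No pair of libraries repeated one another (chi-square per degree of freedom of at least 8.84). The hearts are different mice. The code was tested on simulated data. Alternatives were RLE factors, library totals alone, no filter, DESeq2 1.42.0, limma 3.58.1 on log2 TPM (pseudocounts 1 and 0.1, at least 1 TPM in 4 libraries, or no filter), only 2 groups, a block for the replicate number, no FC minimum, and each heart left out. Counts of the lists without sham replicate 2 or day 1 replicate 2 were added after the data were seen. Shares of families were also computed from raw counts.

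The 10 genes and the lists of other genes were chosen with earlier results of these data known. Named genes are the 10, DEGs of the lists, and the 5 genes with levels most like *Fos* or *Myc*, or with deviations from the group means most like *Fos*. *Ccdc85b*, *Prdx2* and *Gm11175*, whose exons overlap a member, and *Ly6g* were named outside this rule, after their values were seen. The symbol *Map2k7* was not matched to 1 gene. Promoter sequences are from RefSeq. Python 3.11.15 and matplotlib 3.10.9 were used.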

Additional observations from a re-analysis of the deposited data

How the results depend on the processing

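For day 1 AMI against sham, the count of 8 DEGs among the 10 genes stayed between 7 and 9 under the alternatives that kept all hearts, and between 6 and 8 with each heart left out. Higher DEGs among all genes tested ran from 957 to 3360 and from 980 to 1322 in these fits, beside 1192 in the main fit. For day 7 against sham, the 2 DEGs became 5 on library totals alone, 5 with limma on log2(TPM + 1) with or without the filter, 7 with log2(TPM + 0.1), and 5 without a FC minimum, and 2 to 3 with each heart left out. Higher DEGs among all genes moved too, from 2346 of 15306 to 3633 of 15306 on library totals. They were 2666 of 13716 with log2(TPM + 1), 2700 of 26574 without the filter, and 3575 of 13716 with log2(TPM + 0.1). Without a FC minimum they were 4728 of 15306, and with a heart left out 2261 to 2487. For day 7 against day 1, the 5 DEGs became 2 on library totals alone and 1 in each limma fit, and 1 to 5 with each heart left out, with 3 without day 1 replicate 1 and 1 without day 1 replicate 2. Lower DEGs among all genes went from 411 of 15306 to 293 of 15306 on library totals. They numbered 126 to 181 in the limma fits and 356 to 478 with a heart left out. Library totals and TPM do not correct for composition, and their medians over all genes are shifted. *Fosb* did not pass the TPM filter.

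*Egr1* between the AMI groups (-0.018) turned to 0.11 on library totals alone, 0.38 with limma on log2(TPM + 1) with or without the filter, 0.42 with log2(TPM + 0.1), 0.22 without day 1 replicate 1 and 0.090 without day 1 replicate 2. *Jun* (0.052) turned to -0.0071 without day 1 replicate 3 and -0.032 without day 1 replicate 4. With each heart left out, *Egr1* ran from -0.28 to 0.22 and *Jun* from -0.032 to 0.20. None of these passed the test. On raw counts, not divided by length, *Fosl2* held 89.2%, 79.4% and 86.5% of the Fos family in sham, day 1 and day 7, and *Fosl1* 2.75%, 7.77% and 3.32%. Of all log2 FCs of single genes, 343 of the values with a heart left out kept direction and call, 12 lost and 1 gained the call, and 4 turned. Under the other alternatives these numbers were 253, 16, 20 and 5.

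Same-numbered hearts of different groups deviated from their group means with correlations from -0.244 to 0.229, over 0.1 in 4 of 12 pairs. Hearts with different numbers had correlations from -0.271 to 0.250. These values show no sign of a pairing by number but cannot exclude one, since each deviation is taken from a mean of only 4 hearts. With a replicate block, 8, 3 and 5 of the 10 genes were DEGs, beside 1180 higher, 2341 higher and 392 lower DEGs among all 15306 genes. The block made *Fos* a DEG on day 7 against sham (log2 FC 1.01, adjusted p = 0.0227) and turned *Egr1* between the AMI groups to 0.11.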

Other observations

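Over the 12 libraries, the genes whose log2 CPM followed *Fos* most closely were *Mfsd5* (Pearson r = 0.969), *Il17ra* (0.969), *Junb* (0.968), *Sbno2* (0.967) and *Nubp1* (0.963). For *Myc* they were *Clcf1* (0.990), *Eif4a1* (0.982), *Tuba1b* (0.974), *Myo1c* (0.974) and *Enah* (0.972). After the group means were taken out, the closest to *Fos* were *Slc20a1* (0.961), *Isg15* (0.960), *Il17ra* (0.957), *Rmnd5b* (0.948) and *Sowahc* (0.948), with *Junb* in place 9 (0.941), while *Jun* had -0.184. These are descriptions over libraries that fall into 3 groups and share depth and cell make-up, and no p is given.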
